A study of Mus musculus with 8 samples.

Results

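The Tcf/Lef transcription factors, β-catenin and the Groucho co-repressors form the nuclear end of canonical Wnt signaling. The genes described here are Tcf7, Lef1, Tcf7l1 and Tcf7l2 (the 4 Tcf/Lef factors), Ctnnb1 (β-catenin), Ctnnbip1 (an inhibitor of β-catenin), and Tle1, Tle2 and Tle3 (Groucho proteins). They were chosen by name, and all 9 were found among the 22609 gene symbols counted in each library and passed the filter on low counts. The libraries were made from total RNA of immortalized mouse dental papilla cells, which carried either floxed Bmp2 alleles (Bmp2 floxed/floxed, iBmp2 fx/fx, called Fx) or the Bmp2 knockout (iBmp2 ko/ko, called Ko). Each genotype was represented by its own cell line, so that genotype and line cannot be told apart, and the labels name no treatment besides the culture time. For each genotype, 1 library was sequenced at each of 6, 24, 48 and 72 h of culture, which gave 8 libraries in all. The design text of the series names 8 h where the labels name 6 h. As each genotype and time had 1 library, the culture times stood in for replicates, no source says that they were independent cultures, and p-values measure only the spread between these libraries.

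Without a Wnt signal, β-catenin in the cytoplasm is phosphorylated and degraded, and Tcf/Lef factors on DNA recruit Groucho proteins, which silence the target genes. When Wnt ligands are present, β-catenin accumulates, enters the nucleus, displaces Groucho from the Tcf/Lef factors and brings in co-activators. Tcf7 and Lef1 are commonly described as activators in this switch and Tcf7l1 as a repressor, whereas Tcf7l2 can act either way. Tcf7 and Lef1 are themselves known as Wnt target genes, and Lef1 is required for early tooth development. Both genes also produce short isoforms that lack the β-catenin binding domain, which counts per gene symbol cannot separate from the long ones.

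Between 25890110 and 32415665 reads were counted on genes in each library. The targeted gene could not check the genotype, since Bmp2 had 1 read in the Fx library of 24 h and 0 in the other 7 libraries. The library labelled Ko 24 h stood apart from the other Ko libraries. Over 12116 genes with at least 10 counts in every library, its log2 CPM (counts scaled to the same total in every library) differed from those of the Fx library of 6 h by a root mean square of 0.17, the smallest difference among all 28 pairs of libraries. The next smallest, between the Fx libraries of 24 and 48 h, was 0.34. The first difference was still larger than counting error, with a chi-square of 5.26 per gene, and no 2 libraries held identical counts. The comparisons were therefore made over the 6 libraries of 6, 48 and 72 h, the times named in the study's methods. The 24 h libraries are given beside them for the 9 genes and for some of the other genes. In both cell lines, all 6 markers of mesenchyme (among them Vim, Col1a1 and Col3a1) and 9 of 11 markers of dental mesenchyme had more than 3 counts in every library, whereas Lhx8, Barx1 and the odontoblast gene Dspp did not exceed 3 counts in any.

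To show where the genes that differed most start, the windows from 250 bases before to 50 bases after the first listed RefSeq start of Tcf7 (chr11:52282965-52283264, minus strand), Lef1 (chr3:131110047-131110346, plus strand) and, as the factor of the family commonly described as a repressor, Tcf7l1 (chr6:72788996-72789295, minus strand) are printed from RefSeq on GRCm38.p6. Capitals mark GGCGCC, a palindromic GC-rich element that the BMP-regulated Smad proteins can bind.
Tcf7: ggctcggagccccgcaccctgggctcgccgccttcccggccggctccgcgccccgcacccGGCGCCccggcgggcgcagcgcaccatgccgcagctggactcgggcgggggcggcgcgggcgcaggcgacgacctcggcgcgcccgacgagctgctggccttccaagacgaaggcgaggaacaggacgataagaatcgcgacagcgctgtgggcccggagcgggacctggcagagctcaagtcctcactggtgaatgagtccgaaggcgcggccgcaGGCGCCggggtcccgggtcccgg
Lef1: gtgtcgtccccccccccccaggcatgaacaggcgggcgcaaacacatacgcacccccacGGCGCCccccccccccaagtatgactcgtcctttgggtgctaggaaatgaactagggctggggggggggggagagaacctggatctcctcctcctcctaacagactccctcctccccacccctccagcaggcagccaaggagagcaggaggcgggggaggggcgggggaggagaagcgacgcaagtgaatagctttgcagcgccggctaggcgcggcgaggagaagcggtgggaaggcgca
Tcf7l1: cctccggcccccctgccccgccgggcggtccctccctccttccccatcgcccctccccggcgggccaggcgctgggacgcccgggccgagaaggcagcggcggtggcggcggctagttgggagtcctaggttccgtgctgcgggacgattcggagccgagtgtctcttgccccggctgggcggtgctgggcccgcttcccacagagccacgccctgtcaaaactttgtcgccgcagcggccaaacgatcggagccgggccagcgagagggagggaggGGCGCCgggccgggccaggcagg
GGCGCC occurred 2 times in the Tcf7 window and 1 time in each of the other 2, and it was found in 11.9% of the 32851 promoter windows of this length. These windows hold 76.3, 67.3 and 75.3% G and C, against a median of 52.7% over all windows. In the Tcf7 window, 215 of the bases also lie in the coding sequence of a Tcf7 transcript of GENCODE M1, because a longer transcript starts upstream, and the other windows shown hold none of their own coding sequence. Over the 16 windows of the 9 genes, GGCGCC was present in at least 1 window of all genes except Tle1 and Tle2. The Tcf/Lef site CTTTGAT (read on both strands, 3.73% of all windows) was in none of the 16 windows. A variant of it, CTTTGTT (5.85% of all windows), was only in the second window of Tcf7l2. A match to letters is a description and not a binding site.

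Tcf7 showed the largest genotype difference of the 9 genes. Its level, as CPM normalised with edgeR's TMM method, was 52.5, 48.1 and 33.3 in the Fx libraries of 6, 48 and 72 h. The Ko libraries of these times had 5.93, 2.40 and 2.69 CPM. Every Fx library was above every Ko library of these times, with a mean of 44.6 ± 10.1 CPM (SD, n = 3) against 3.67 ± 1.96 (SD, n = 3), a 12.2-fold difference of the means. These levels rest on 988 to 1682 counts in the Fx libraries and 67 to 179 in the Ko libraries. Tcf7 was downregulated by a log2 fold change of -3.58 ± 0.42 (standard error) in Ko, with an adjusted p of 0.0120 (Benjamini-Hochberg) in edgeR's quasi-likelihood test. In these bulk libraries, fewer expressing cells and less RNA per cell cannot be told apart.

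At 24 h the order of the genotypes was reversed. The Fx library of 24 h had 23.8 CPM of Tcf7, the lowest of the Fx libraries, and the library labelled Ko 24 h had 50.0 CPM, within the range of the Fx cells and far above the other Ko libraries. With all 8 libraries the log2 fold change was -1.35 and the adjusted p 0.604. Leaving out only the library labelled Ko 24 h gave -3.42 with an adjusted p of 0.00563. Without the Fx library of 48 h the adjusted p was 0.0721, and without the Ko library of 48 h it was 0.0752, at log2 fold changes of -3.54 and -3.36. The Tcf7 gene (chr11:52065873-52096681 on mm9, minus strand, 2790 exonic bases) is overlapped at its 5′ end by the antisense noncoding gene A630014C17Rik, with no shared exonic base. That gene had 20, 23 and 9 counts in the Fx libraries of 6, 48 and 72 h, 1, 4 and 0 in the Ko libraries of these times, and 7 and 13 in the Fx and Ko libraries of 24 h. The same-strand noncoding gene Gm16953 also overlaps Tcf7 with no shared exonic base, and had 1 to 9 counts per library.

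Lef1, the other factor commonly described as an activator, was also lower in the Ko cells. In the Fx cells it stood at 13.0, 9.18 and 10.5 CPM at 6, 48 and 72 h, and in the Ko cells at 2.82, 2.20 and 4.53 CPM. The groups did not overlap, with means of 10.9 ± 1.94 and 3.18 ± 1.21 CPM (SD, n = 3 each), a 3.42-fold difference. The log2 fold change was -1.77 (standard error 0.34), and its adjusted p of 0.0508 in edgeR's quasi-likelihood test missed the limit of 0.05. With culture time as a block the log2 fold change was -1.80 and the adjusted p 0.00238, so Lef1 was downregulated in that fit. Over all alternatives the adjusted p of Lef1 ranged from 6.699e-05 (DESeq2) to 0.631 (all 8 libraries). The library labelled Ko 24 h had 13.2 CPM and the Fx library of 24 h 5.96 CPM, so that the difference again had the opposite sign at 24 h. Lef1 lies at chr3:130813389-130927274 of mm9 (plus strand, 8654 exonic bases), and no gene of GENCODE M1 overlaps it.

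The remaining Tcf/Lef factors did not pass the test. Tcf7l1, commonly described as a repressor, had 20.1, 20.1 and 17.6 CPM in the Fx libraries of 6, 48 and 72 h and 32.8, 21.0 and 20.1 CPM in the Ko libraries. Only the Ko library of 6 h was clearly above the Fx range, and the groups overlapped. Its log2 fold change was 0.37 ± 0.25 (standard error), with an adjusted p of 0.586 in edgeR's quasi-likelihood test. Tcf7l2 had 18.4, 29.0 and 29.7 CPM in the Fx libraries and 34.1, 35.1 and 28.7 CPM in the Ko libraries. Here the Fx library of 6 h was the low one, the groups overlapped, and the log2 fold change was 0.36 ± 0.23 with an adjusted p of 0.567. At 24 h, Tcf7l1 was at 16.1 (Fx) and 18.1 CPM (Ko), and Tcf7l2 at 24.8 and 18.8 CPM. Unlike Tcf7 and Lef1, neither gene had all Ko libraries of 6, 48 and 72 h on the same side of all Fx libraries. On mm9, Tcf7l1 lies at chr6:72576372-72739248 (minus strand, 3323 exonic bases) and Tcf7l2 at chr19:55816300-56008144 (plus strand, 8739 exonic bases). Tcf7l1 shares 179 exonic bases with the opposite-strand gene Gm15401, which had 7 to 28 counts per library.

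**Figure D1:**
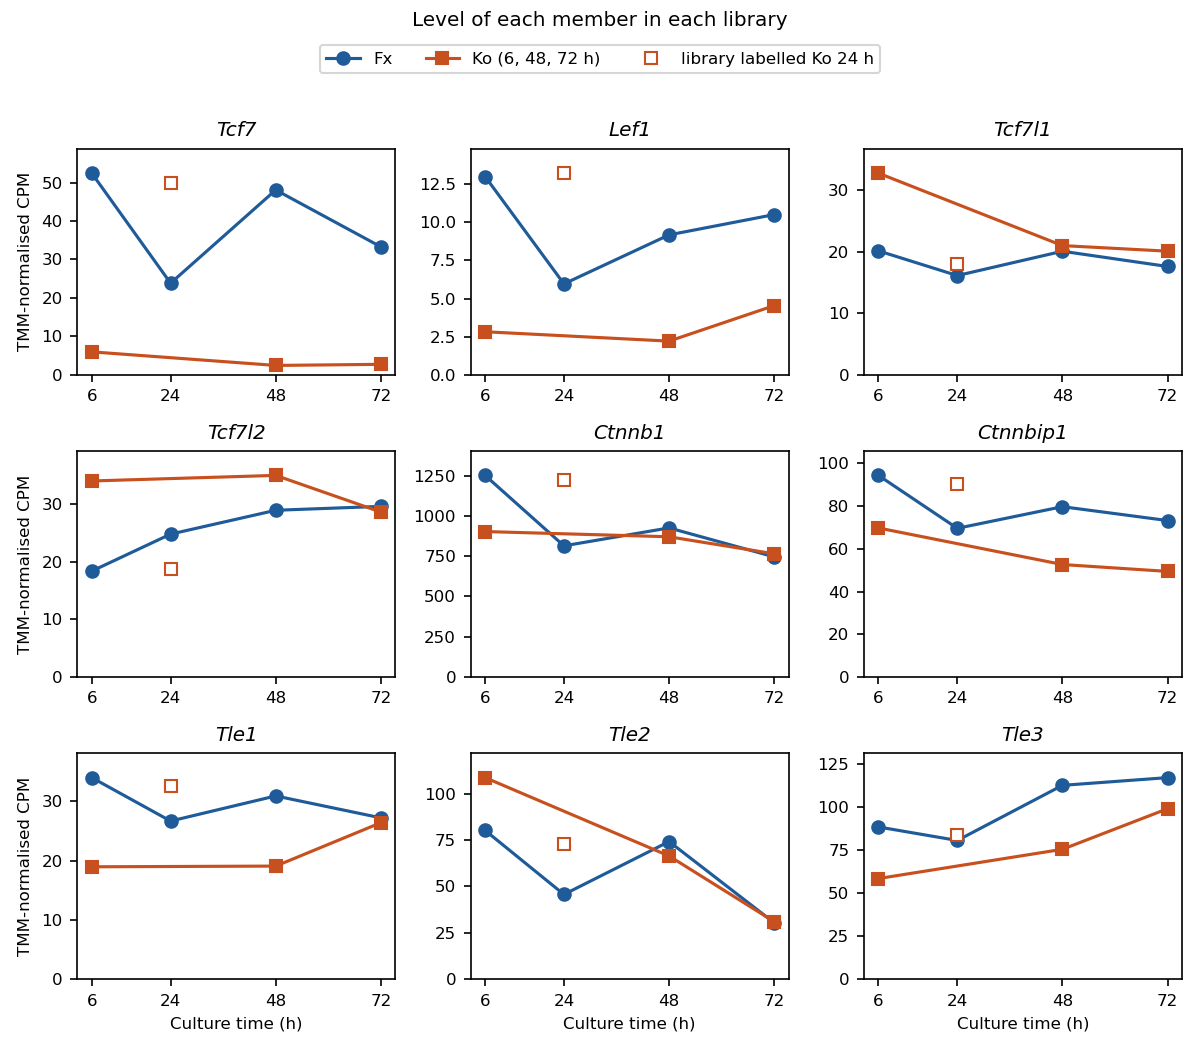
TMM-normalised CPM of each of the 9 genes (vertical axes, each from 0) against culture time in hours; blue circles are the Fx libraries, filled orange squares the Ko libraries of 6, 48 and 72 h, and the open square the library labelled Ko 24 h, with 1 library per point. Tcf7 lies far lower in the filled Ko points than in the Fx points. Lef1 is also lower in them, though its Fx point of 24 h (5.96) is close to its Ko point of 72 h (4.53). The open squares of Tcf7 (50.0) and Lef1 (13.2) lie at the Fx level of 6 h.

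β-catenin itself was abundant in both cell lines. Ctnnb1 had 1251, 925 and 745 CPM in the Fx libraries of 6, 48 and 72 h and 902, 870 and 764 CPM in the Ko libraries. The Ko values lay inside the Fx range, and the log2 fold change of -0.19 ± 0.25 (standard error) had an adjusted p of 0.811 in edgeR's quasi-likelihood test. The library labelled Ko 24 h had 1222 CPM, close to the Fx library of 6 h, and the Fx library of 24 h had 814 CPM. The sign of this small difference was positive, at 0.03 on the log2 scale, over all 8 libraries. Ctnnb1 lies at chr9:120838334-120869625 of mm9 (plus strand) and shares 240 of its 5099 exonic bases with the opposite-strand gene Ulk4, which had 78 to 183 counts per library. Transcript levels say nothing of the degradation of β-catenin protein, through which the pathway is known to act.

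Ctnnbip1 (also called ICAT) encodes a small protein that binds β-catenin and keeps it from Tcf/Lef factors. Its level was 94.4, 79.8 and 73.3 CPM in the Fx libraries of 6, 48 and 72 h. The Ko libraries of these times had 69.8, 52.6 and 49.4 CPM, and each was below the lowest Fx library of these times. The log2 fold change was -0.51 ± 0.21 (standard error) with an adjusted p of 0.327 without the block. With culture time as a block it was -0.52 ± 0.10 with an adjusted p of 0.0112, so Ctnnbip1 was downregulated in that fit of edgeR. Its adjusted p ranged from 0.0112 to 0.696 over the alternatives. The library labelled Ko 24 h, at 90.6 CPM, was above the Fx library of 24 h, at 69.6 CPM. Ctnnbip1 (chr4:148892345-148940546 of mm9, plus strand) shares 720 exonic bases, 25.8% of its 2792, with the opposite-strand noncoding gene Gm13066. Gm13066 was counted 819, 627 and 490 times in the Fx libraries of 6, 48 and 72 h and 612, 395 and 292 times in the Ko libraries. The strand setting of the counting is not given in the sources used here, so reads of this pair cannot be told apart, and the part of Gm13066 in the Ctnnbip1 difference was not tested.

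None of the 3 Groucho genes passed the test without the block. Tle1 had 34.0, 30.9 and 27.2 CPM in the Fx libraries of 6, 48 and 72 h and 19.0, 19.1 and 26.4 CPM in the Ko libraries. The groups did not overlap, by a narrow margin at 72 h, and the log2 fold change of -0.50 ± 0.21 (standard error) had an adjusted p of 0.351 in edgeR's quasi-likelihood test and 0.0732 with the block. Over the alternatives its adjusted p ranged from 0.0732 to 0.746. Tle3 had 88.6, 113 and 117 CPM in the Fx libraries and 58.5, 75.6 and 99.2 CPM in the Ko libraries. Within each of these times the Ko library was the lower, although the ranges overlapped across times. The log2 fold change of Tle3 was -0.43 ± 0.23 with an adjusted p of 0.465, and with the block it was -0.46 ± 0.11 with an adjusted p of 0.0271, so Tle3 was downregulated in that fit. Its adjusted p ranged from 0.0271 to 0.853 over the alternatives.

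Tle2 was the most variable of the Groucho genes. Its Fx libraries of 6, 48 and 72 h had 80.2, 74.1 and 30.4 CPM, and its Ko libraries had 109, 66.4 and 31.0 CPM. The lines met at 48 and 72 h, and the genotype difference of 0.17 ± 0.52 (standard error, log2) had an adjusted p of 0.925 in edgeR's quasi-likelihood test. At 24 h, Tle1 had 26.7 (Fx) and 32.6 CPM (Ko), Tle2 45.6 and 72.7 CPM, and Tle3 80.7 and 83.7 CPM. All 3 were thus higher in the library labelled Ko 24 h than in the Fx library of the same time. On mm9, Tle1 lies at chr4:71778176-71861953 (minus strand), Tle2 at chr10:81037306-81053590 (plus strand) and Tle3 at chr9:61220190-61266297 (plus strand). Tle1 shares 21 of 5589 words of 50 bases in its transcripts with its paralog Tle4. A read of such a word matches both genes, and multi-mapped alignments were set aside in the counting.

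**Figure D2:**
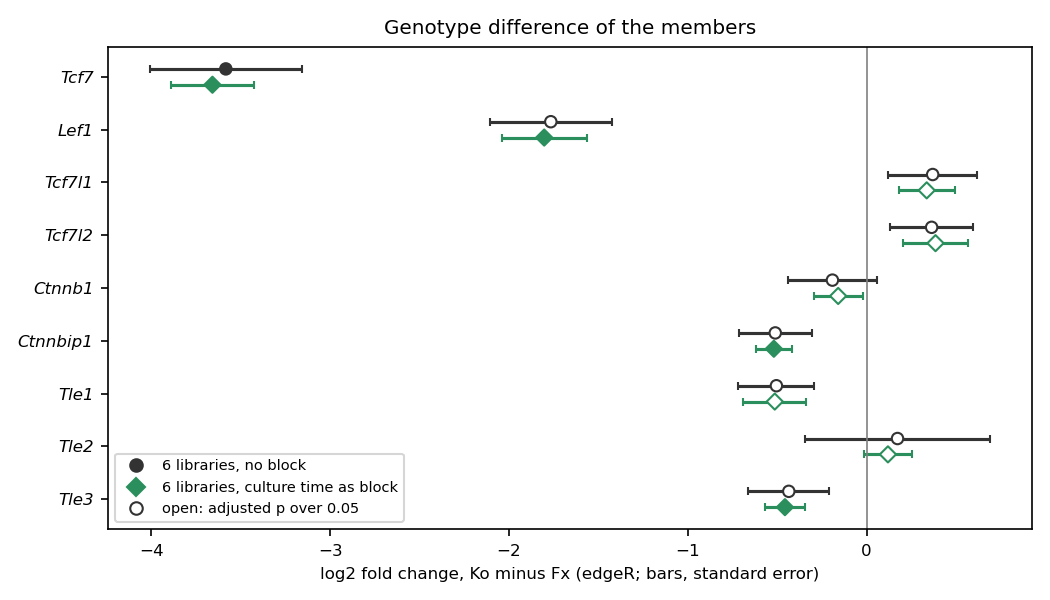
Log2 fold change, Ko minus Fx, of each gene over the 6 libraries of 6, 48 and 72 h, with bars of 1 standard error from edgeR; circles are the fit without a block and diamonds the fit with culture time as a block, filled where the adjusted p was at most 0.05. Tcf7 (-3.58) and Lef1 (-1.77) lie apart from the other 7 genes, which are between -0.51 and 0.37 in the fit without a block.

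Counted together, 1 of the 9 genes (Tcf7) was called at an adjusted p of at most 0.05, where 2.22% of the 13121 genes tested were called. The limit in the study's methods (a log2 fold change past 1 in size, and p under 0.05, taken here before adjustment) was applied to edgeR's test. By it 2 of the 9 were called (Tcf7 and Lef1), against 7.35% of all genes. The study used limma, and a figure legend of it names a Q value of at most 0.05 instead, so its counts cannot be set directly beside these. With culture time as a block, 4 of the 9 were called (Tcf7, Lef1, Ctnnbip1 and Tle3), against 22.7% of all genes. Over the libraries of 6, 48 and 72 h, no Ko library fell within the range of the Fx libraries or the reverse for 4 of the 9. These were Tcf7, Lef1, Ctnnbip1 and Tle1, each lower in the Ko cells, against 20.0% of all genes. Each of these calls was a downregulation, and the median log2 fold change of all genes was 0.03. The library labelled Ko 24 h lay nearer to the Fx mean than to the Ko mean of log2 CPM for 7 of the 9 genes, all but Tle2 and Tle3, and for 65.1% of 13039 genes with a count in every library.

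Culture time was tested as a slope on the log2 of time, shared by the genotypes, over the same 6 libraries. In edgeR's quasi-likelihood test, 0 of the 9 genes and 0% of all genes passed the adjusted limit, although 2775 of all genes had an unadjusted p under 0.05. DESeq2 called 978 of all genes and 0 of the 9. At an unadjusted p under 0.05, 4 of the 9 had a slope. Tle3 had a slope of 0.14 ± 0.05 (log2 per log2 hour, standard error) with an adjusted p of 0.201. For Tle2 the slope was -0.33 ± 0.12 with an adjusted p of 0.213, for Tcf7 -0.25 ± 0.08 with 0.200, and for Ctnnbip1 -0.12 ± 0.04 with 0.200. Tle2 was at its lowest at 72 h in both cell lines and Tle3 at its highest. For the interaction of genotype with time, edgeR called 0% of all genes and 0 of the 9, with 63 of all genes and none of the 9 under an unadjusted p of 0.05. The smallest unadjusted p among the 9 was 0.107, for Tcf7l2, whose log2 difference between Ko and Fx was 0.89, 0.27 and -0.05 in order of time.

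To compare levels between genes, CPM was divided by the exonic length of each gene in kilobases, which gives RPKM. In the Fx cells the order of mean RPKM over 6, 48 and 72 h was Ctnnb1 (191 ± 50.3, SD, n = 3), Ctnnbip1 (29.5 ± 3.88), Tcf7 (16.0 ± 3.60), Tle2 (9.89 ± 4.37), Tle3 (9.14 ± 1.33), Tcf7l1 (5.80 ± 0.44), Tle1 (3.53 ± 0.39), Tcf7l2 (2.94 ± 0.72) and Lef1 (1.26 ± 0.22). Neighbours whose libraries overlapped in this order were Tcf7 and Tle2, Tle2 and Tle3, and Tle1 and Tcf7l2. In the Ko cells the order was Ctnnb1 (166 ± 14.2), Ctnnbip1 (20.5 ± 3.92), Tle2 (11.0 ± 6.25), Tcf7l1 (7.41 ± 2.13), Tle3 (6.69 ± 1.76), Tcf7l2 (3.73 ± 0.39), Tle1 (2.47 ± 0.49), Tcf7 (1.32 ± 0.70) and Lef1 (0.37 ± 0.14). There, only Tle2 and Tcf7l1, and Tcf7l1 and Tle3, overlapped as neighbours. Tcf7 was thus at rank 3 in the Fx cells and at rank 8, above Lef1 only, in the Ko cells. By CPM without length, which does not compare transcript numbers, it was at ranks 5 and 8.

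The make-up of the Tcf/Lef family differed between the cell lines in the same libraries. Tcf7 made up 66.0, 62.3 and 54.6% of the summed RPKM of the 4 factors in the Fx libraries of 6, 48 and 72 h. In the Ko libraries it made up 13.1, 7.50 and 8.91%. By RPKM, Tcf7l1 was the major factor in these Ko libraries, with 60.8, 55.2 and 55.9% against 21.3, 21.9 and 24.3% in the Fx libraries. Tcf7l2 followed with 24.1, 35.1 and 30.3% in the Ko libraries against 7.40, 12.0 and 15.6% in the Fx libraries. The order of these genes rests on the exonic lengths used, 3323 bases for Tcf7l1 and 8739 for Tcf7l2. By CPM without length, Tcf7l2 was above Tcf7l1 in the Ko cells, with means of 32.6 ± 3.44 and 24.6 ± 7.09 CPM (SD, n = 3 each). Lef1 held between 2.01 and 5.56% in all of these libraries. Since shares of a sum move together, the higher shares of Tcf7l1 and Tcf7l2 do not show a rise in their levels. The summed RPKM itself was 28.5, 27.7 and 21.8 in the Fx cells and 16.2, 11.5 and 10.8 in the Ko cells.

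At 24 h the Fx library had 50.4% Tcf7 and 28.7% Tcf7l1 in a sum of 16.9 RPKM. The library labelled Ko 24 h had 66.3% Tcf7 and 20.1% Tcf7l1 in a sum of 27.0 RPKM, beside 66.0% and 21.3% in a sum of 28.5 RPKM in the Fx library of 6 h. Tcf7 and Lef1 together held 54.5 to 71.3% in the 4 Fx libraries, 9.72 to 15.1% in the Ko libraries of 6, 48 and 72 h, and 72.0% in the library labelled Ko 24 h.

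**Figure D3:**
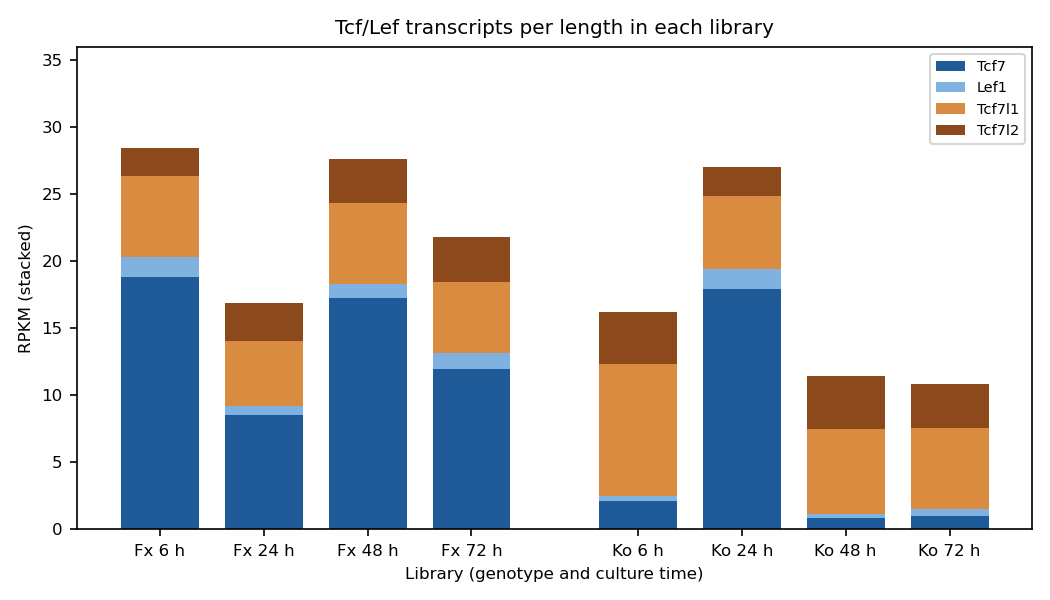
Stacked RPKM of the 4 Tcf/Lef factors (vertical axis, from 0) in each of the 8 libraries, 1 bar per genotype and culture time, with no error bars since each bar is 1 library. Tcf7 forms the largest part of the 4 Fx bars and of the bar labelled Ko 24 h (66.3%), and Tcf7l1 the largest part of the Ko bars of 6, 48 and 72 h. These parts depend on the exonic length used for each gene.

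Ratios between the classes moved with this sum. The summed RPKM of Tle1, Tle2 and Tle3 per summed RPKM of the Tcf/Lef factors was 0.857, 0.910 and 0.828 in the Fx libraries of 6, 48 and 72 h and 1.52, 1.69 and 1.53 in the Ko libraries. The Groucho sum alone was 24.4, 25.2 and 18.1 RPKM in the Fx cells and 24.7, 19.4 and 16.5 in the Ko cells, so that the groups overlapped in it. Within the Groucho sum, Tle2 held 52.8, 47.4 and 27.0% in the Fx libraries and 70.8, 55.1 and 30.1% in the Ko libraries. Ctnnb1 was present at 8.62, 6.56 and 6.69 times the Tcf/Lef sum in the Fx cells and at 10.9, 14.9 and 13.9 times in the Ko cells. Per Ctnnbip1, Ctnnb1 was at 7.26, 6.35 and 5.57 times in the Fx libraries and 7.08, 9.05 and 8.47 times in the Ko libraries, which overlapped at 6 h. In the 24 h libraries (Fx first), the Groucho to Tcf/Lef ratio was 1.02 and 0.837, and the β-catenin to Tcf/Lef ratio 9.43 and 8.87. These ratios compare transcripts and not proteins.

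The genes whose log2 CPM, centred on its mean, lay nearest to each Tcf/Lef factor over the 8 libraries were taken from 12059 genes with a mean of at least 1 CPM. Nearest to Tcf7 were Aspg (root mean square difference 0.32 on the log2 scale), Pkp1 (0.32) and Fam167a (0.33), beside a standard deviation of Tcf7 itself of 1.81. Aspg, an asparaginase, had 12.1, 6.32, 10.2 and 4.78 CPM in the Fx libraries of 6, 24, 48 and 72 h and 0.398, 10.3, 0.227 and 0.120 CPM in the Ko libraries. Nearest to Lef1 were Fzd7 (0.27), Parvb (0.29) and Rhou (0.29), with a standard deviation of Lef1 of 0.91. Fzd7, a Frizzled receptor for Wnt ligands, had 177, 118, 156 and 135 CPM in the Fx libraries and 46.4, 183, 59.3 and 68.4 CPM in the Ko libraries, again with the Fx level in the library labelled Ko 24 h. Tcf7l1 lay nearest to Ndufv3 (0.06), Mmaa (0.08) and Ring1 (0.08), and Tcf7l2 to 1700106N22Rik (0.10), Nab2 (0.11) and Rgag4 (0.12), with standard deviations of 0.30 and 0.35. Such likeness over 8 libraries that share genotype, depth and the 24 h pattern is a description.

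The other genes of the pathway were taken in 7 lists by role, and Tcf7 and Lef1 also stand in the list of target genes. Among the receptors and Dishevelled proteins, 20 of 24 were tested and 2 were called, both downregulated in the Ko cells. Lgr6, a receptor for R-spondins, went from 38.2 ± 15.3 CPM (SD, n = 3) in the Fx cells to 3.41 ± 2.52 in the Ko cells (log2 fold change -3.48, adjusted p 0.0282). Its 24 h libraries had the opposite order, with 18.4 (Fx) and 24.5 CPM (Ko). Fzd7 went from 156 ± 20.9 to 58.0 ± 11.1 CPM (log2 fold change -1.42, adjusted p 0.0214). The 20 genes had 9 positive and 11 negative log2 fold changes with a median of -0.10, against 0.03 over all genes. With the block, 4 were called higher and 7 lower. Over all genes, 2.22% were called without the block and 22.7% with it.

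Of 21 known Wnt and Tcf target genes, 15 were tested and 3 were called, all downregulated. Notum, a secreted feedback inhibitor that inactivates Wnt ligands, had 10.01, 27.1 and 23.1 CPM in the Fx libraries of 6, 48 and 72 h and 0.596, 0.615 and 1.00 CPM in the Ko libraries (log2 fold change -4.75, standard error 0.48, adjusted p 0.00765). At 24 h it had 9.25 CPM (Fx) and 8.45 CPM (Ko). Tcf7 was the next in size, and Nkd2, which binds Dishevelled, was the third (log2 fold change -2.90, adjusted p 0.0214), although it rests on only 4 to 5 counts in each of these Ko libraries. Axin2, the target most often used to read Wnt activity and named here after its values were seen, had 1.15, 1.30 and 1.31 CPM in the Fx libraries and 0.398, 0.647 and 0.562 CPM in the Ko libraries. Its log2 fold change of -1.21 had an adjusted p of 0.184, and of 0.0264 with the block. The 24 h libraries had 0.892 (Fx) and 0.704 CPM (Ko) of Axin2. The 15 genes had 5 positive and 10 negative values and a median of -0.47, and with the block 2 were called higher and 6 lower. The shares over all genes were again 2.22% without and 22.7% with the block. The list is not all of 1 direction, since Bambi had a log2 fold change of 1.65 (adjusted p 0.0624, and 0.00792 with the block). Ccnd1, the other target called higher with the block, had 0.88 (adjusted p 0.651, and 0.00181 with the block). Both were named after their values were seen.

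No gene of the destruction complex, the nuclear co-activators or the catenins and cadherins passed the adjusted limit in edgeR without the block. Among 12 tested genes of the destruction complex, which marks β-catenin for degradation, edgeR called 0, with 1 lower at an unadjusted p under 0.05, DESeq2 called 0, and the block called 2, both lower. Their log2 fold changes ran from -1.21 (Axin2) to 0.29 (Fam123b), with a median of -0.13. Among 12 nuclear co-activators of β-catenin, edgeR called 0, with 3 lower at an unadjusted p under 0.05, whereas DESeq2 called 2 lower and the block 5 lower. Over all 13121 genes, 1836 had an unadjusted p under 0.05, DESeq2 called 873 and the block 2981 (22.7%). The log2 fold changes of the co-activators ran from -1.25 (Pygo1) to 0.16 (Kdm2a), 10 of 12 were negative, and the median was -0.32. Among 7 tested catenins and classical cadherins, which hold β-catenin at the membrane, edgeR called 0, with 2 higher at an unadjusted p under 0.05, and DESeq2 and the block each called 2 higher. The 2 with the largest positive values were Cdh3 (log2 fold change 2.78, adjusted p 0.0508) and Cdh11 (2.11, adjusted p 0.0648), both named after their values were seen. Cdh11, a cadherin of mesenchymal cells, had 8.61, 11.6 and 18.1 CPM in the Fx libraries of 6, 48 and 72 h and 29.1, 50.3 and 83.8 CPM in the Ko libraries. The order was reversed at 24 h, with 13.2 (Fx) and 8.97 CPM (Ko) for Cdh11 and 5.28 and 2.52 CPM for Cdh3. The other 5 ran from -0.32 (Ctnnal1) upward.

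Groucho proteins do not bind DNA and are recruited by several families of transcription factors besides Tcf/Lef. Of 16 such factors, 9 were tested and 2 were called, both downregulated. Hey1, a repressor downstream of Notch, had 23.7, 29.7 and 17.5 CPM in the Fx libraries of 6, 48 and 72 h and 0.431, 0.0971 and 0.281 CPM in the Ko libraries, where it rests on 13, 3 and 7 counts (log2 fold change -6.42, standard error 0.52, adjusted p 0.00502). Runx3, of the Runx family that also acts in bone and tooth, went from 42.0 ± 6.54 to 11.3 ± 3.91 CPM (SD, n = 3 each, log2 fold change -1.89, adjusted p 0.0219). In the library labelled Ko 24 h these genes had 24.2 and 37.7 CPM, within their Fx ranges. The 9 genes had 2 positive and 7 negative values and a median of -0.55, and the block called 1 higher and 6 lower, beside 2.22% of all genes called without the block and 22.7% with it. Among 14 tested co-repressors and inhibitors of the nuclear complex, edgeR called 0, with 3 higher and 1 lower at an unadjusted p under 0.05, DESeq2 called 1 higher, and the block called 4 higher and 1 lower. Their log2 fold changes ran from -0.63 (Sox9) to 1.26 (Hic1), with a median of -0.07. The lists were chosen with results of these data known, and their counts are descriptions.

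**Figure D4:**
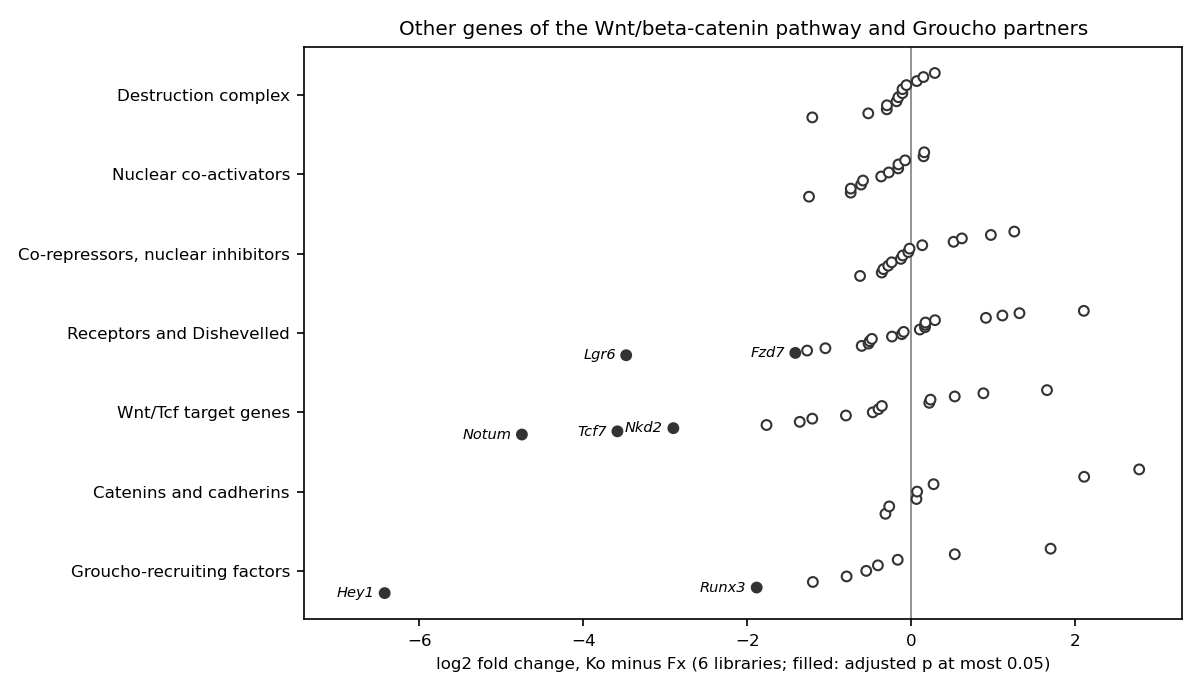
Log2 fold change, Ko minus Fx, over the 6 libraries of 6, 48 and 72 h for each tested gene of the 7 lists, 1 point per gene (spread vertically only to part the points), filled and named where edgeR's adjusted p was at most 0.05. All filled points lie below 0, from Hey1 (-6.42) to Fzd7 (-1.42), and 4 of the 7 lists hold no filled point.

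Tcf7 and Lef1 are best known from T lymphocytes, so markers of other cells were counted. Of 6 markers of T or lymphoid cells, Cd3e, Cd3d, Cd8a and Ptprc did not exceed 3 counts in any library. Lck had 67 to 140 counts in each library, and Cd4 at most 11. The summed level of the 6 was 2.26 to 5.14 CPM in the Fx cells and 3.27 to 3.91 CPM in the Ko cells. Most of each sum came from Lck. The 7 markers of epithelium, which also uses Lef1 in the tooth, summed to 0.750 to 2.21 CPM in the Fx cells and 0.441 to 1.85 CPM in the Ko cells, with Krt5 and Shh at no more than 3 counts in any library. Krt14 had 5 to 41 counts per library, and Epcam at most 20. Markers of odontoblasts summed to 128 to 245 CPM in the Fx cells and 87.2 to 132 CPM in the Ko cells. The highest of these Ko sums, 132 CPM, was that of the library labelled Ko 24 h. Most of each sum came from Nes, with 142 ± 34.9 CPM in Fx and 97.1 ± 15.4 in Ko (SD, n = 3 each, 6, 48 and 72 h). The groups overlapped in Nes, Bglap and Phex, and the mean of Phex was higher in Ko (0.987 against 0.717 CPM). Within that list Alpl, which encodes tissue-nonspecific alkaline phosphatase, had a mean of 42.3 ± 26.6 CPM in the Fx cells and 0.861 ± 0.472 CPM in the Ko cells (SD, n = 3 each, 6, 48 and 72 h), and 12.8 CPM in the library labelled Ko 24 h. Markers of dental mesenchyme summed to 509 to 725 CPM in the Fx cells and 420 to 563 CPM in the Ko cells. Within that list, Dlx2 had 49.4 ± 8.59 CPM in the Fx cells and 8.43 ± 8.19 CPM in the Ko cells, and Msx1 7.10 ± 0.26 and 4.06 ± 0.54 CPM (SD, n = 3 each), in both without overlap of the groups of 6, 48 and 72 h. In the 24 h libraries Dlx2 had the opposite order, with 33.3 (Fx) and 42.8 CPM (Ko). Over 6, 48 and 72 h, Msx2, Lhx6 and Twist1 were also lower and Pax9 was higher in the Ko cells without overlap. Dlx1, Runx2 and Prrx1 overlapped. Of all genes tested, 20.0% did not overlap in these libraries. The 6 markers of mesenchyme or fibroblasts summed to 8085 to 9604 CPM in the Fx cells and 8959 to 17210 CPM in the Ko cells, with the lowest Ko sum in the library labelled Ko 24 h. Over the 6 libraries of 6, 48 and 72 h, the sums were 8085 to 9604 CPM in Fx and 11540 to 17210 CPM in Ko for mesenchyme or fibroblasts, and 128 to 245 against 87.2 to 118 CPM for odontoblasts, so that these sums did not overlap, whereas those of dental mesenchyme did. The low sums of epithelium (1.04 to 2.21 against 0.441 to 0.994 CPM) and macrophages (4.48 to 14.2 against 2.69 to 3.43 CPM) did not overlap in these libraries either. Of the mesenchyme markers, Col3a1 (2.81-fold), Thy1 (2.22-fold) and Vim (1.62-fold) were higher in every Ko library of 6, 48 and 72 h than in every Fx library of these times. These 3, the single dental mesenchyme genes, and Alpl, Nes, Bglap, Phex, Lck, Cd4, Krt14 and Epcam are named after their values were seen. Markers of macrophages, endothelium and glia summed to 14.2 CPM or less in every library. The part of these marker differences in the difference of Tcf7 and Lef1 was not tested.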

How the data were processed

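Total RNA of the cell lines was sequenced in 8 libraries as reads of 50 bases, unpaired in the labels, though the study's methods name paired reads. According to the submitters' processing notes, CASAVA 1.8.2, TopHat2 2.0.8b and HTSeq were used on mm9. The authors deposited integer counts per gene symbol and per lncRNA symbol for each library, with no normalization, and the annotation is not given in the sources used here. HTSeq set aside 41.3 to 49.6% of the alignments as multi-mapped, and its 5 summary counters were left out.

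Counts were normalised with TMM and tested with edgeR 4.0.16 in R 4.3.3 by the quasi-likelihood test, after its filter on low counts (at least 10 counts, 15 in total), with Benjamini-Hochberg adjustment over 13121 genes. The main fit held the libraries of 6, 48 and 72 h and no block, since the study names none. The culture time was also used as a block, because libraries of the same time deviated together from their genotype mean (correlations over genes of 0.735, 0.572 and 0.866 for 6, 48 and 72 h). The pairing comes from the culture times in the labels. A standard error is the size of the log2 fold change divided by the square root of the F statistic. A level of 3 counts, the smallest taken as detectable, is 0.0926 to 0.116 CPM, and covers counting error only. Gene models came from GENCODE M1 on mm9, which held 95.7% of the symbols. All 9 genes were matched to RefSeq promoters by symbol.

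The alternatives were all 8 libraries, all but the library labelled Ko 24 h, the block, log2 time as a covariate, time in hours, DESeq2 1.42.0, limma 3.58.1, other scalings and filters, and leaving out each library. The genes named beside the 9 are, per list, the called genes with the 2 largest rises and falls or else the range, the 3 genes nearest to each Tcf/Lef factor, and overlapping genes. Others are marked as named after their values were seen. The genes and lists were chosen with earlier results of these data known. The fits were run on simulated counts with known changes. Those counts were drawn independently for each library with the same dispersion for all genes. They lack the deviations shared by culture time, so the effect of these on the fits was not tested.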

Additional observations from a re-analysis of the deposited data

Results flagged for a closer look

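In 46 groups of 4 libraries (9 levels and the shares and ratios derived from them, in each genotype), 4 had a library whose gap to its nearest neighbour exceeded Dixon's 95% limit for 4 values. Chance flags about 1 in 20 groups. All 4 were the library labelled Ko 24 h among the 4 Ko libraries, and they are not independent, since each rests on its Tcf7 count. Its Tcf7 level was 50.0 CPM, where the other Ko libraries had 2.40 to 5.93 CPM. Tcf7 made up 66.3% of its Tcf/Lef sum, where the others had 7.50 to 13.1%. Tcf7l1 made up 20.1% of that sum, where the others had 55.2 to 60.8%. Tcf7 and Lef1 together made up 72.0%, where the others had 9.72 to 15.1%. No Fx library was flagged.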

How the results depend on the processing

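Of the 9 genes, 1 was called for genotype. With all 8 libraries 0 were called, and 0 with all 8 and culture time as a block. The block over 6 libraries gave 4, DESeq2 2, limma 2 and no filter on low counts 2. Leaving out 1 library gave 0 to 2, with 0 without the Fx or the Ko library of 48 h. Of all genes, 291 were called. With all 8 libraries 0 were called in edgeR (1336 at an unadjusted p under 0.05), 483 without only the library labelled Ko 24 h, 2981 with the block over 6 libraries, 44 with the block over 8, 477 with log2 time as a covariate, 873 in DESeq2, 145 with at least 10 counts in every library, and 9 to 383 when leaving out 1 library. For culture time 0 genes were called, against 1 with all 8 libraries, 4 with time in hours, 978 in DESeq2, and 0 to 196 when leaving out 1 library (196 without the Ko library of 48 h).

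The downregulation of Tcf7 kept its sign under every alternative and lost its call with all 8 libraries (-1.35), with the block over 8 (-2.68, adjusted p 0.161), and without either library of 48 h, with -4.12 to -3.36 when leaving out 1 library. The sign of some uncalled values turned. Ctnnb1 for genotype was 0.028 with all 8 libraries and 0.037 with the block over 8, and -0.36 to 0.024 when leaving out 1 library. Tle2 was -0.33 to 0.50 when leaving out 1 library. For culture time, Lef1 was 0.00096 with time in hours and -0.12 to 0.12 when leaving out 1 library. Tle1 was -0.0014 with all 8 libraries, -0.0015 with at least 10 counts in every library, and -0.066 to 0.090 when leaving out 1 library, and Tcf7l2 was -0.034 to 0.17. The cause of these changes was not tested. Ranks per length moved for 10 of 36 values, only when length was left out.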

Other observations

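None of Aes, Tle4 and Tle6, relatives of the Groucho genes outside the 9, passed the test without the block. Aes, which encodes a short Groucho protein without the repeats that bind many partners, had 270, 213 and 198 CPM in the Fx libraries of 6, 48 and 72 h and 581, 378 and 360 CPM in the Ko libraries. Every Ko library of these times was above every Fx library of these times. Its log2 fold change was 0.97 ± 0.26 (standard error), with an adjusted p of 0.142 in edgeR without the block and 0.00145 with it. In the library labelled Ko 24 h it had 240 CPM, within the Fx range. Tle4, the paralog that shares 21 words of 50 bases with Tle1, had 8.33, 7.54 and 7.14 CPM in the Fx libraries and 11.3, 12.6 and 11.0 CPM in the Ko libraries (log2 fold change 0.62, adjusted p 0.261, and 0.0291 with the block).

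Aes, Tle2 and Tle6 lie side by side on chromosome 10 of mm9, with Aes 8199 bases from Tle2 and Tle6 59 bases from its other end. Their log2 fold changes over the 6 libraries were 0.97 (Aes), 0.17 (Tle2) and -0.24 (Tle6, adjusted p 0.854), and the block called Aes among these 3 neighbours. These genes were named after their values were seen.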
